A study of Mus musculus with 5 samples.

Results

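Granzymes and cytotoxic effector genes were followed in sorted regulatory T (Treg) cells. The 7 genes are 5 of the cytotoxic granule, Gzma, Gzmb, Gzmk, Prf1 and Nkg7, and the killer-lectin receptors Klrd1 and Klrg1. They were taken by symbol from files of 38130 entries each, all 7 were found, and 6 passed the filter of the tests, a mean of at least 1 scaled FPKM over the 5 libraries. Gzmk, with a mean of 0.559, did not pass. A gene that is high in 1 library can pass through that library, and its call there is then not independent of the filter. The granule-protease genes Gzma (ENSMUSG00000023132, chromosome 13, 113093825 to 113100979) and Gzmk (ENSMUSG00000042385, chromosome 13, 113171608 to 113225908) lie close together. Gzmb (ENSMUSG00000015437) lies on chromosome 14 at 56258856 to 56262260, Prf1 (ENSMUSG00000037202) on chromosome 10 at 61297836 to 61304263 and Nkg7 (ENSMUSG00000004612) on chromosome 7 at 43437073 to 43438246. Both receptor genes lie on chromosome 6, Klrg1 (ENSMUSG00000030114) at 122270596 to 122282882 and Klrd1 (ENSMUSG00000030165) at 129591782 to 129598775. Positions are those of the files on build GRCm38, counted from 1, and all 7 genes are protein coding.

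Granzymes and their partners are the killing tools of cytotoxic lymphocytes. Perforin opens the membrane of a target cell, and granzymes, which are serine proteases stored in the same granules, enter and cut proteins inside it. Killer-lectin receptors sit on the cell surface and set the threshold for that attack. Treg cells, Foxp3-expressing CD4 T cells that hold immune responses in check, can also make granzymes, and part of the effector Treg cells carry Klrg1.

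RNA was sequenced from CD4+YFP+ cells sorted from C57BL/6 mice that all carry a Foxp3-driven Cre with a yellow fluorescent protein, so the sort and any deletion follow Foxp3 expression. There were 5 libraries in 4 groups. Wild type (WT) mice gave 1 library at 21 days and 1 at 6 weeks. Mice with 2 floxed Malt1 alleles (Foxp3Cre-YFP, malt1 fl/fl), in which the labels give Malt1 as deleted in Treg cells (KO), gave 1 library at 21 days. Mice with 1 floxed Malt1 allele and 1 allele carrying C472A (Foxp3Cre-YFP, malt1 fl/C472A), which the labels describe as inhibited protease activity in Treg cells (KI), gave 2 libraries at 6 weeks. Malt1 is a paracaspase that links antigen receptors to NF-kB. The labels do not say whether a library came from 1 mouse or from several, nor that the KI libraries came from separate mice, so the p-values given below reflect only how far these samples scatter, which can be technical in origin.

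Values are scaled FPKM, the deposited measure of fragments per transcript length and library size, divided by 1 factor per library. FPKM is a level per length, so levels of different genes can be compared. The bounds given with a level are those of Cufflinks, which lie 2 standard errors away and cover counting and assignment error within 1 library only. Differences between libraries are of log2(scaled FPKM + 1), a scale that understates those of low genes, and "past 2-fold" means at least 1 on that scale. In these sorted pools, fewer cells of a type and less RNA per cell cannot be told apart.

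Estimated depth was about 24300000 to 27900000 fragments in 21-day WT and in both KI libraries, but about 6860000 in 6-week WT and 7760000 in KO. Each comparison of equal age therefore runs between a deep and a shallow library, and for the 7 genes the difference from the other WT library is given as well. At gene level, Malt1 in the library labelled KO lay between the WT values, with 17.6 scaled FPKM there, 27.0 in 21-day WT, 15.2 in 6-week WT, and 55.9 and 37.8 in KI. A value summed over the gene need not show a deletion of some exons. All 7 Treg markers examined passed the filter in these libraries, and Foxp3 had 70.7 in 21-day WT, 39.5 in 6-week WT, 30.5 in KO, and 70.1 and 73.6 in KI. 6-week WT stood apart in markers of plasmacytoid dendritic cells, whose summed level was 130.5 scaled FPKM there and 21.0 to 42.5 in the other libraries. The summed myeloid markers were also highest there, at 95.3 against 31.2 to 61.0.

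The sequences upstream of the granule genes are shown because all 5 granule genes had their highest level in the same library, KO. RefSeq's promoter table (GRCm38.p6) held 5 of the 7 genes, without Klrd1 and Klrg1, and each line below gives the 250 bases before RefSeq's start site, 5′ to 3′ on the gene's strand. Capitals mark matches, on either strand, to 4 spelled motifs, AP-1 (TGANTCA), Runx (TGTGGT), T-box (GGTGTG) and STAT (TTCNNNGAA), and to NF-kB. The windows are chr14:56262335-56262584 (minus strand) for Gzmb, chr7:43436888-43437137 (plus) for Nkg7, chr13:113100982-113101231 (minus) for Gzma, chr10:61297586-61297835 (plus) for Prf1 and chr13:113180966-113181215 (minus) for Gzmk.
Gzmb: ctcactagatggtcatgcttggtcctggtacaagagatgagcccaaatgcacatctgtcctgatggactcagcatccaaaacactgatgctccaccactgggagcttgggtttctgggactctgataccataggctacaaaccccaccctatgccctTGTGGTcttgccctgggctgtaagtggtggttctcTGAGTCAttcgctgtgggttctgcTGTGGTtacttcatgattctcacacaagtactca
Nkg7: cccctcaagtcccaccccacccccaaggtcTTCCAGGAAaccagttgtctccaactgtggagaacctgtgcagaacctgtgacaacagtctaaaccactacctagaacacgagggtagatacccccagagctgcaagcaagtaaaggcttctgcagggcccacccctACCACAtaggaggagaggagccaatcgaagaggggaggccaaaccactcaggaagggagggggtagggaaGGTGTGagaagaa
Gzma: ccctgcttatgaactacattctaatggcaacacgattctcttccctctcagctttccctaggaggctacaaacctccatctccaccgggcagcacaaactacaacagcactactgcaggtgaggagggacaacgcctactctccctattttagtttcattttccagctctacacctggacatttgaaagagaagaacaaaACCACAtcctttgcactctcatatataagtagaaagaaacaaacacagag
Prf1: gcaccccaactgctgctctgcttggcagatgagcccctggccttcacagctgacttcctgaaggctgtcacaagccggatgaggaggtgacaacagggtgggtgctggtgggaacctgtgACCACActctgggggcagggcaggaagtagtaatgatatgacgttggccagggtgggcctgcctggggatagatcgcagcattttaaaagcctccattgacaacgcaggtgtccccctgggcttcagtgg
Gzmk: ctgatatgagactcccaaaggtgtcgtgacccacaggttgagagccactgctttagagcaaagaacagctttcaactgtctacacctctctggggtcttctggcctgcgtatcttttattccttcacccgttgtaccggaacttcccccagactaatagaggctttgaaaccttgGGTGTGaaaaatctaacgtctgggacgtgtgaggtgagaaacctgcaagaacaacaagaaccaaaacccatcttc

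Of the 5 windows, 4 hold the Runx letters, which 14.0% of the 32851 RefSeq windows of the same length hold, and Gzmb holds them at 2 places. In Gzmb the AP-1 letters lie between the 2 Runx matches, starting at position -58 from the start site, and 6.75% of all windows hold them. Nkg7 holds the T-box letters at position -13 and a STAT match at -220, found in 16.3% and 7.02% of all windows. The window of Gzmk holds the T-box letters and no Runx match. None of the 5 windows holds the NF-kB motif, which 3.9% of all windows do. RefSeq's start sites are not always those of the files. The Nkg7 window, with its T-box match, runs into the gene as the files place it. The Gzmb window lies some way upstream of the gene's start in the files. The Gzmk window lies within the gene as the files give it, which has several start sites. No 2 of these matches overlap, and a match describes letters in this window, not binding.

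**Figure D1:**
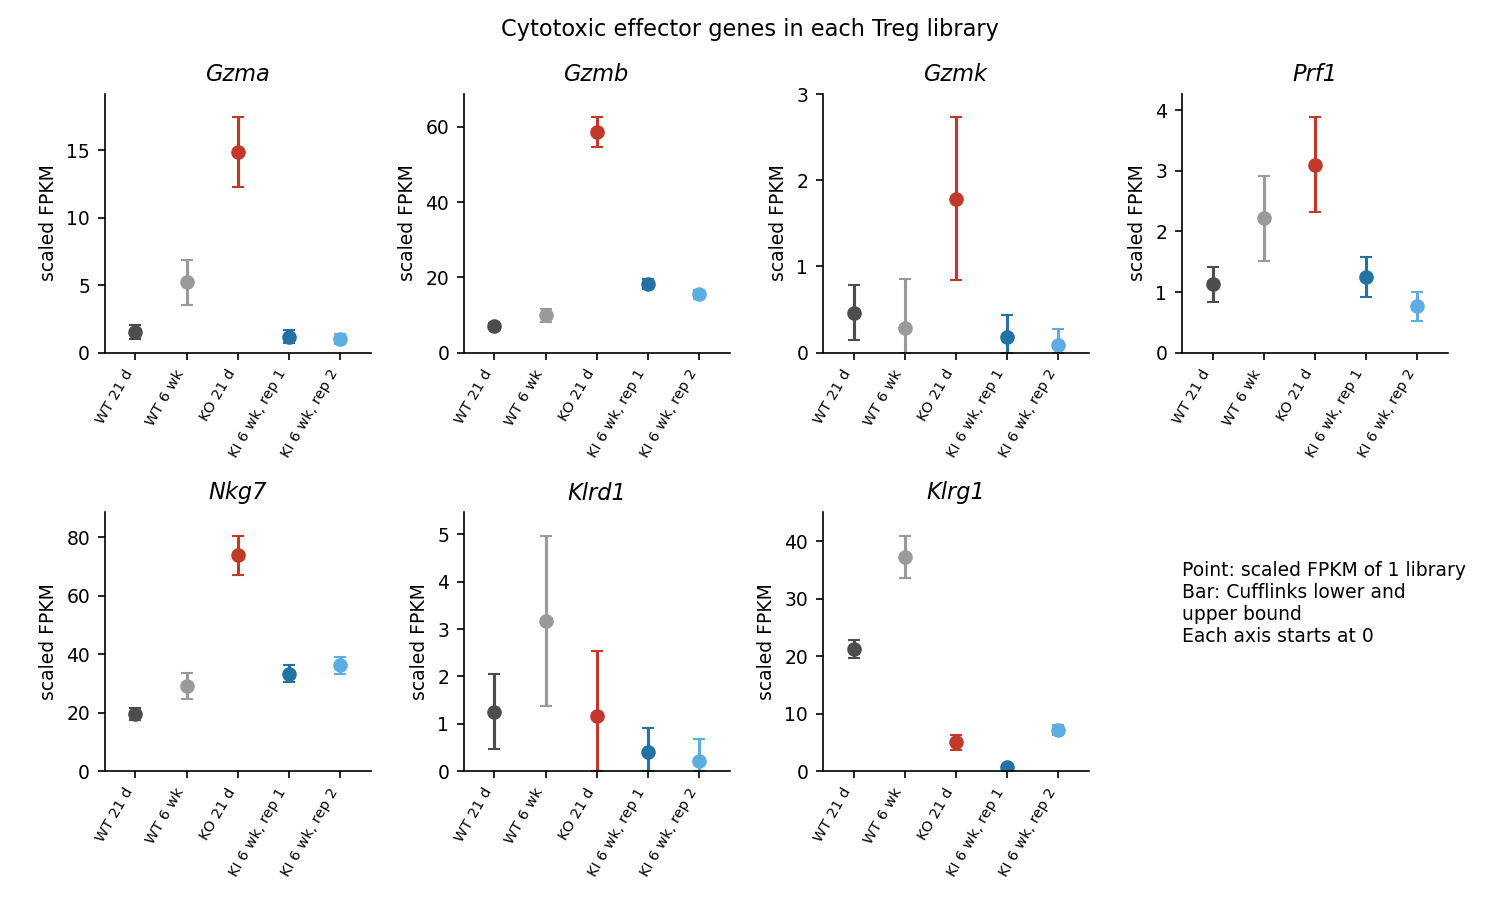
Level of each gene (vertical axis, scaled FPKM, starting at 0) in each of the 5 libraries (horizontal axis), with a bar from the lower to the upper Cufflinks bound. The 5 granule genes have their highest point in KO, while Klrg1 and Klrd1 have theirs in 6-week WT.

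The 5 granule genes were all highest in the KO library, and the receptors Klrg1 and Klrd1 were highest in 6-week WT. Over all 11296 tested genes, 24.6% were highest in KO and 20.7% in 6-week WT. The plot of levels by library shows this division between granule genes and receptors.

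Gzmb encodes granzyme B, which cuts after aspartate and can set off apoptosis. It had 7.13 scaled FPKM in 21-day WT (bounds 6.29 and 7.96) and 9.93 in 6-week WT (8.20 and 11.7). The KO library had 58.7 (54.7 and 62.6), and the KI libraries had 18.2 (16.8 and 19.7) and 15.5 (14.3 and 16.8), with a mean of 16.9 ± 1.93 (SD, n = 2). All 3 libraries from Malt1 mutant mice thus lay above both WT libraries, with bounds that did not overlap those of WT. In value alone, 7.34% of all tested genes had all 3 mutant libraries above both WT libraries, Nkg7 among them. KO was 8.23-fold above 21-day WT and 5.91-fold above 6-week WT. Among the tested genes of KO, 91.8% had a lower level than Gzmb, against 42.2% in 21-day WT.

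Nkg7 is a membrane protein of cytotoxic granules that takes part in their release. It had 19.4 scaled FPKM in 21-day WT (17.3 and 21.5), 29.1 in 6-week WT (24.6 and 33.6) and 73.8 in KO (67.0 and 80.5). The KI libraries had 33.3 (30.4 and 36.2) and 36.2 (33.2 and 39.1). KO stood 3.80-fold above 21-day WT and 2.54-fold above 6-week WT, and its bounds were clear of those of every other library. The KI libraries lay above 21-day WT, but their bounds overlapped those of 6-week WT.

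Gzma encodes granzyme A, a protease that cuts after basic residues. It had 1.54 scaled FPKM in 21-day WT (1.04 and 2.05), 5.23 in 6-week WT (3.56 and 6.89) and 14.9 in KO (12.3 and 17.5). The KI libraries had 1.17 (0.703 and 1.64) and 1.01 (0.603 and 1.41), with a mean of 1.09 ± 0.118 (SD, n = 2). KO was 9.63-fold above 21-day WT and 2.84-fold above 6-week WT. In KI the level was as low as in 21-day WT, where the bounds overlapped, and below that of 6-week WT, where they did not. From the width of the bounds, these values rest on about 25 to 130 fragments.

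Prf1 encodes perforin, the pore that lets granzymes into a target cell. It was low in every library, with 1.13 scaled FPKM in 21-day WT (0.836 and 1.42), 2.21 in 6-week WT (1.51 and 2.92) and 3.10 in KO (2.32 and 3.89). The KI libraries had 1.25 (0.915 and 1.58) and 0.763 (0.520 and 1.01). KO was 2.76-fold above 21-day WT with bounds apart, and 1.40-fold above 6-week WT with bounds that overlapped.

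Gzmk encodes granzyme K, another protease of the granzyme A type. Its level was 0.464 scaled FPKM in 21-day WT (0.148 and 0.780), 0.280 in 6-week WT (0 and 0.849) and 1.79 in KO (0.841 and 2.73). In KI it was 0.176 (0 and 0.442) and 0.0857 (0 and 0.276). KO had the highest value, on about 14.3 fragments, and its lower bound lay just under the upper bound of 6-week WT.

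Klrg1 encodes an inhibitory receptor for cadherins. It had 21.3 scaled FPKM in 21-day WT (19.7 and 22.8) and 37.3 in 6-week WT (33.6 and 41.0). KO had 4.98 (3.70 and 6.27), and the KI libraries had 0.699 (0.394 and 1.0) and 7.16 (6.23 and 8.10), with a mean of 3.93 ± 4.57 (SD, n = 2). All 3 mutant libraries lay below both WT libraries with bounds apart, which held in value for 7.02% of all tested genes. KO was 4.27-fold below 21-day WT and 7.49-fold below 6-week WT. The KI libraries did not agree on its level, since replicate 2 was 10.3-fold above replicate 1, with bounds that did not overlap.

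Klrd1 encodes CD94, which pairs with NKG2 receptors to read the nonclassical MHC molecule Qa-1. It had 1.25 scaled FPKM in 21-day WT (0.461 and 2.04), 3.17 in 6-week WT (1.37 and 4.97) and 1.17 in KO (0 and 2.54). The KI libraries had 0.402 (0 and 0.915) and 0.221 (0 and 0.689). These values rest on about 12.4 fragments or fewer, and the bounds of KO overlapped those of every other library.

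The order of the levels differed between libraries, and with 1 library for KO and for each WT age this cannot be tied to genotype. In both WT libraries it was Klrg1, Nkg7, Gzmb, Gzma, Klrd1, Prf1 and Gzmk from high to low, with overlapping bounds for Klrg1 and Nkg7 at 21 days. In both WT libraries the bounds of Klrd1 also overlapped those of its neighbours Gzma and Prf1. In KO, Nkg7 and Gzmb led, and Gzma, with 14.9, stood above Klrg1 with 4.98. In both KI libraries Nkg7 and Gzmb led as well, while Gzma, Prf1, Klrd1 and Gzmk were at or under 1.25 scaled FPKM. The rest of the order differed within the KI pair. Klrg1 stood below Prf1 and Gzma in replicate 1, with 0.699, and above both in replicate 2, with 7.16.

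The granzymes also differed in their proportions. The ratio of Gzmb to Gzma was 4.62 in 21-day WT, 1.90 in 6-week WT and 3.95 in KO, and 15.6 and 15.4 in the KI libraries. Within a library such a ratio does not depend on the scaling factor. Gzmb exceeded Prf1 by 6.33-fold and 4.48-fold in 21-day and 6-week WT, by 18.9-fold in KO, and by 14.6- and 20.3-fold in KI. The ratio of Klrg1 to Nkg7 was 1.1 and 1.28 in 21-day and 6-week WT, 0.0675 in KO, and 0.0210 and 0.198 in KI.

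**Figure D2:**
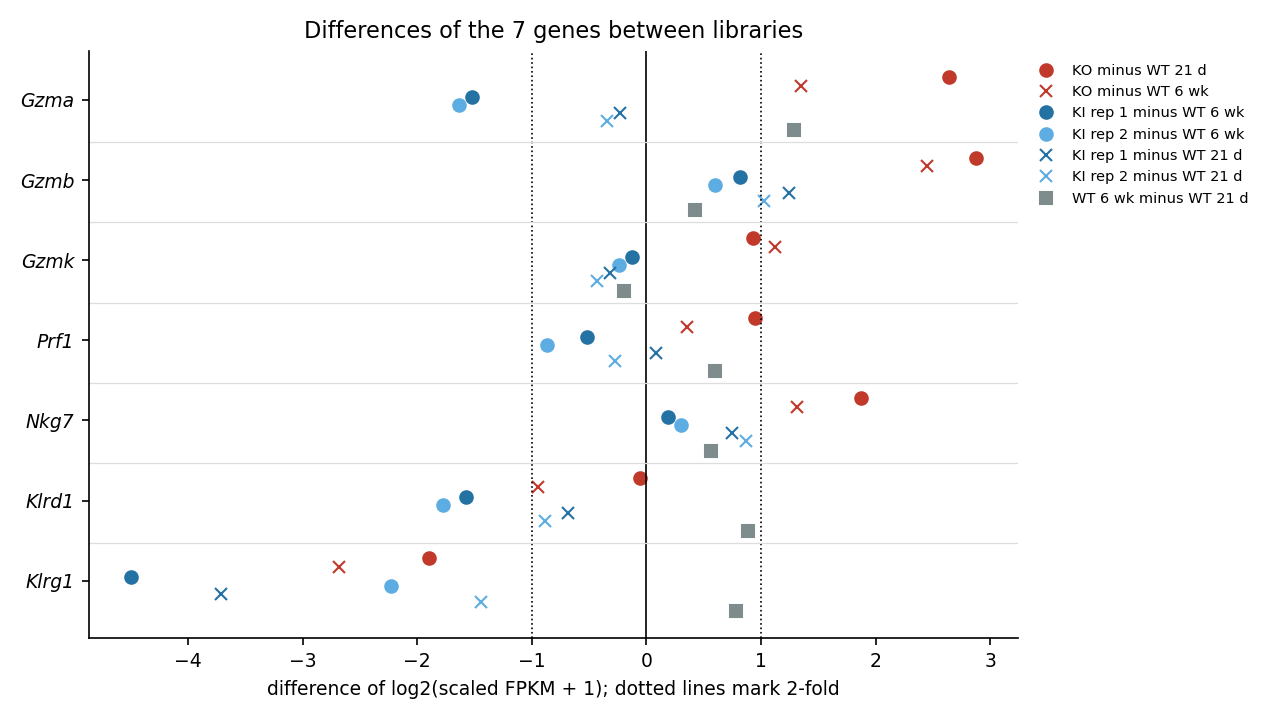
Difference of log2(scaled FPKM + 1) (horizontal axis) for each gene (vertical axis), with 1 symbol for each pair of libraries and dotted lines at 2-fold. Red symbols of the granule genes lie to the right of 0 and every red and blue symbol of Klrg1 lies left of -1.

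The comparison of KO with 21-day WT asks how Treg cells differ when Malt1 is deleted. With 1 library in each group it has no replicate check. A limma fit of all 5 libraries, with the spread taken from the KI pair, called 0 genes at an adjusted p under 0.05 and 1171 had an unadjusted p under 0.05, so the genes are given by size. Of the 7 genes, 3 were past 2-fold on the higher side, Gzmb with a difference of 2.88, Gzma with 2.64 and Nkg7 with 1.87, and Klrg1 was past it on the lower side with -1.90. Prf1 had 0.95, Gzmk 0.93 and Klrd1 -0.06. Over all tested genes, 6.13% were past 2-fold higher and 8.14% lower, and with FPKM as deposited 13.4% and 4.36%. With FPKM as deposited, or with a pseudocount of 0.1, Gzmk and Prf1 were past 2-fold too, which made 5 higher and 1 lower. For the pseudocount of 0.1 the shares over all tested genes were not computed, so that count has no background beside it. The median difference was 0.95 over the 7 genes and 0.02 over all tested genes. Bounds were apart for 5 of the 7 genes on the higher side and 1 on the lower, beside 24.5% and 27.2% of all tested genes.

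Against 6-week WT, which is as shallow as KO, Gzmb had a difference of 2.45, Gzma 1.35, Nkg7 1.31 and Gzmk 1.12, and Klrg1 had -2.68. These 4 higher genes and 1 lower gene stand beside 3.3% and 2.29% of all tested genes. Prf1 had 0.35 and Klrd1 -0.95. Bounds were apart for Gzma, Gzmb and Nkg7 on the higher side and Klrg1 on the lower, beside 10.1% and 12% of all tested genes. Both comparisons share the KO library. Gzma, Gzmb and Nkg7 were past 2-fold higher against both WT libraries, as were 2.17% of all tested genes, and Klrg1 was past it lower, as were 0.938%. By bounds clear of both WT libraries, the same 3 genes were higher, as were 7.53% of all tested genes, and Klrg1 was lower, as were 8.25%.

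The comparison of KI with 6-week WT asks what changes when the protease activity is inhibited. Here limma, fitted over all genes, takes its 1 residual degree of freedom from the 2 KI libraries, and the single WT library is assumed to vary as they do. It called 1 of 11296 genes (0.00885%), the mitochondrial tRNA gene mt-Tp, and 0 of the 6 tested genes described here. Gzma was at -1.58 (SE 0.268, limma adjusted p = 0.372), with -1.52 and -1.63 in the KI replicates. Klrd1 was at -1.67 (SE 0.227, limma adjusted p = 0.308), with -1.57 and -1.77. Klrg1 was at -3.36 (SE 1.11, limma adjusted p = 0.460), with -4.50 and -2.23. These 3 genes had an unadjusted p under 0.05 on the lower side, as had 4.97% of all tested genes, and 0 of the 6 had one on the higher side, beside 5.75%. The same 3 were past 2-fold lower in both KI libraries, beside 2.8% of all tested genes, and 0 of the 7 were past 2-fold higher, beside 3.01%. With FPKM as deposited those shares over all genes were 4.77% and 1.92%. Klrd1 passed the filter, with a mean of 1.24, only through its 3.17 scaled FPKM in 6-week WT. Its test and its call against that library are therefore not independent of the filter. The same holds for some of the markers named next, such as Siglech and Hba-a2. All 6 tested markers of plasmacytoid dendritic cells, 3 of 4 erythroid, 3 of 5 B and plasma cell and 2 of 6 myeloid markers, and Tyrobp of the NK cell list, were also past 2-fold lower in both KI libraries, and their part in the 3 lower genes was not tested.

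The other granule genes lay nearer to 6-week WT in KI. Gzmb was at 0.71 (SE 0.269, limma adjusted p = 0.482), with bounds apart from WT in both KI libraries, as for 16% of all tested genes on the higher side. Bounds were apart on the lower side for Gzma, Klrd1 and Klrg1, beside 13% of all tested genes. Prf1 was at -0.69 (limma adjusted p = 0.494), Nkg7 at 0.25 (limma adjusted p = 0.682) and Gzmk, untested, at -0.18. The direction of Nkg7 flipped with FPKM as deposited, to -0.037. The median over the 7 genes was -0.69, beside 0.00 over all tested genes.

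Against 21-day WT, the deep WT library, all differences of KI moved, and the calls past 2-fold changed for Gzma, Gzmb and Klrd1. Gzma had -0.29 there and Gzmb 1.13, with 1.24 and 1.02 in the KI replicates, so Gzmb was past 2-fold higher, as were 0.398% of all tested genes. Klrg1 had -2.58 and was past 2-fold lower, as were 0.788%. Bounds were apart for Gzmb and Nkg7 on the higher side and Klrg1 on the lower, beside 5.86% and 6.95%. Klrd1 had -0.78, neither past 2-fold nor with bounds apart, Nkg7 0.81, Prf1 -0.09 and Gzmk -0.37. The WT side of this comparison is again 1 library, so its genes are given by size. Klrg1 was thus the gene past 2-fold lower in both KI libraries against both WT libraries, as were 0.345% of all tested genes, and none of the 7 was past it higher, as were 0.283%. Both KI libraries lay below both WT libraries in value for Gzma, Gzmk, Klrd1 and Klrg1, as for 16.9% of all tested genes.

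**Figure D3:**
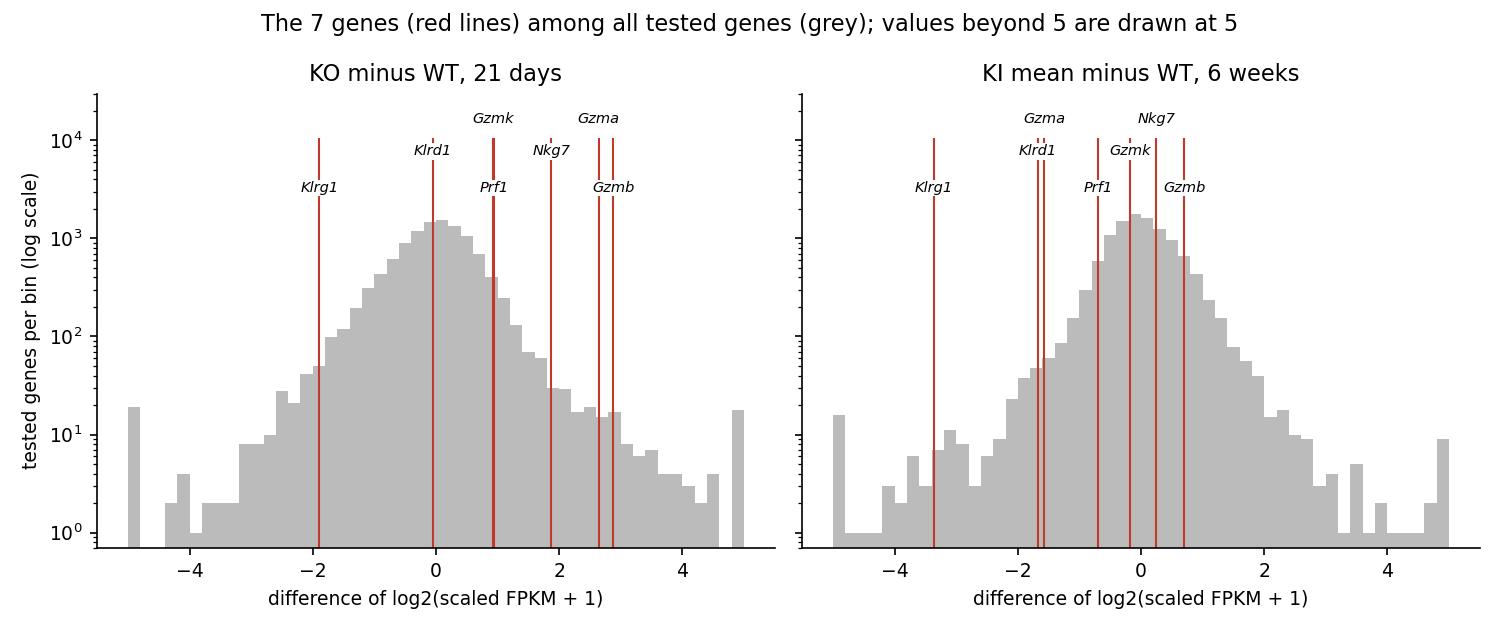
Number of tested genes (vertical axis, log scale) by difference of log2(scaled FPKM + 1) (horizontal axis), for KO against 21-day WT on the left and the KI mean against 6-week WT on the right, with red lines at the 7 genes and values beyond 5 drawn at 5. Gzmb at 2.88 and Gzma at 2.64 lie in the right tail for KO, and Klrg1 at -3.36 lies in the left tail for KI.

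The WT libraries themselves differed. 6-week WT was above 21-day WT for 6 of the 7 genes, with Gzma at 1.29, Klrd1 at 0.89, Klrg1 at 0.78, Prf1 at 0.60, Nkg7 at 0.56 and Gzmb at 0.43, and Gzmk at -0.19. Gzma was the 1 gene past 2-fold, beside 3.38% of tested genes on the higher side and 5.18% on the lower (8.75% and 3.01% with FPKM as deposited). Bounds were apart for 5 of the 7, all higher, beside 18.6% of tested genes on the higher side and 23% on the lower. The myeloid and plasmacytoid dendritic cell markers were high in the same library. So were all 4 tested erythroid markers, with a sum over the list of 55.8 against 6.80 in 21-day WT, and Tyrobp (50.1 against 1.24) and Fcer1g (4.50 against 0.563) of the NK cell list. The part of all these markers in the differences was not tested. Age, depth and library cannot be told apart in this pair.

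Within the KI pair, Klrg1 was the 1 gene of the 7 that differed by more than 2-fold, with 2.26 on the log2 scale for replicate 2 minus replicate 1, beside 2.44% of all tested genes on the higher side and 4.14% on the lower. The other members differed by between -0.35 (Prf1) and 0.12 (Nkg7).

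Exact zeros in these files need not mean a lack of expression, since Vamp7, a widely used vesicle fusion gene, is also listed at 0 in all 5 libraries. Of 7 other granzymes, Gzmd, Gzme, Gzmg and Gzmn were listed at 0 in all 5 libraries. Gzmm reached 0.833, in KO. Gzmc, which lies in the same cluster as Gzmb on chromosome 14, was the 1 tested gene. It was past 2-fold higher in KO than in 21-day WT, with 2.62 and 0.715, beside 6.13% of all tested genes. It had 1.73 in 6-week WT, from which KO was not past 2-fold. Members of this family resemble each other and may share reads.

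Genes that load, store and release granules were counted next, and the shares given with them also stand beside the list counts below. Of 14 such genes 13 were tested. In both KI libraries against 6-week WT 0 were past 2-fold, beside 3.01% of all tested genes higher and 2.8% lower. In KO against 21-day WT 1 was past 2-fold higher and 0 lower, beside 6.13% and 8.14%. The 1 was Cst7, encoding cystatin F, an inhibitor of the cathepsin that activates granzymes, with 45.7 scaled FPKM in 21-day WT, 41.6 in 6-week WT and 110.2 in KO, and 58.5 and 65.1 in KI. Srgn, the proteoglycan core of the granule, had 545 and 463 in WT, 738 in KO, and 585 and 569 in KI. Rab27a, which docks granules at the membrane, had 33.0 and 29.5 in WT, 57.0 in KO, and 58.6 and 46.5 in KI. Of 4 serpins that inhibit granzymes or related proteases, 3 were tested and 0 were past 2-fold in either comparison. Serpinb9, an inhibitor of granzyme B, had 4.01 and 3.01 in WT, 5.19 in KO, and 4.46 and 5.52 in KI.

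Of 7 death ligands, receptors and effector cytokines, all tested, 0 were past 2-fold higher and 1, Tnfrsf10b, lower in KO against 21-day WT, and 0 in both KI libraries. Tnfrsf10b had -1.49 there and -0.34 against 6-week WT. Of the ligands of the lectin receptors, H2-T23, which encodes the Qa-1 molecule read by CD94, had 133 and 173 scaled FPKM in WT, 179 in KO, and 114 and 132 in KI. Cdh1, the cadherin bound by Klrg1, stayed at or under 0.599 in every library. The 2 tested genes of that list were not past 2-fold in either comparison.

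No other killer-lectin receptor of the 20 examined passed the filter. Their summed level was 2.51 scaled FPKM in 21-day WT, 6.83 in 6-week WT, 6.69 in KO, and 1.60 and 1.27 in KI. Klrk1, which encodes the activating receptor NKG2D, had 0.266 and 0.291 in WT, 2.13 in KO, and 0.408 and 0.0537 in KI. Klrc1, which encodes the NKG2A partner of CD94, had 0.120 and 0.510 in WT, 0.300 in KO, and 0.146 and 0.0625 in KI. Between 5 and 16 of the 20 receptors were listed at 0 in each library.

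Among 16 transcription factors of effector lymphocytes, 14 were tested. In KO against 21-day WT, 2 were past 2-fold higher and 3 lower, beside 6.13% and 8.14% of all tested genes. The 2 were Tbx21 and Eomes, the T-box factors that drive cytotoxic genes. Eomes passed the filter only through its level in KO, so its call there is not independent of the filter. Tbx21 had 2.37 scaled FPKM in 21-day WT, 3.29 in 6-week WT and 6.34 in KO, and 2.72 and 3.09 in KI. Eomes had 0.599, 1.62 and 2.76, and 0.730 and 0.579 in KI. Hopx, Bach2 and Bhlhe40 were the 3 lower, with Hopx at 65.6 in 21-day WT, 51.3 in 6-week WT and 31.5 in KO, and Bach2, a repressor of effector genes, at 19.7, 8.79 and 9.0. None of these 5 calls held against 6-week WT, where Tbx21 was at 0.78, Eomes at 0.52, Hopx at -0.69 and Bach2 at 0.03, and Bhlhe40 turned to 1.70. Beside 3.01% and 2.8% of all tested genes, 2 of the 14 were past 2-fold higher and 0 lower in both KI libraries at once against 6-week WT. These were Irf4, a factor of effector Treg cells, with 11.3 in 6-week WT and 31.1 and 39.5 in KI, and Bhlhe40, with 24.3 and then 446 and 102. Against 21-day WT, with 21.4 for Irf4 and 177 for Bhlhe40, neither was past 2-fold in both KI libraries, with 0.52 and 0.86 for Irf4 and 1.33 and -0.79 for Bhlhe40. Bhlhe40 had 80.9 in KO.

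**Figure D4:**
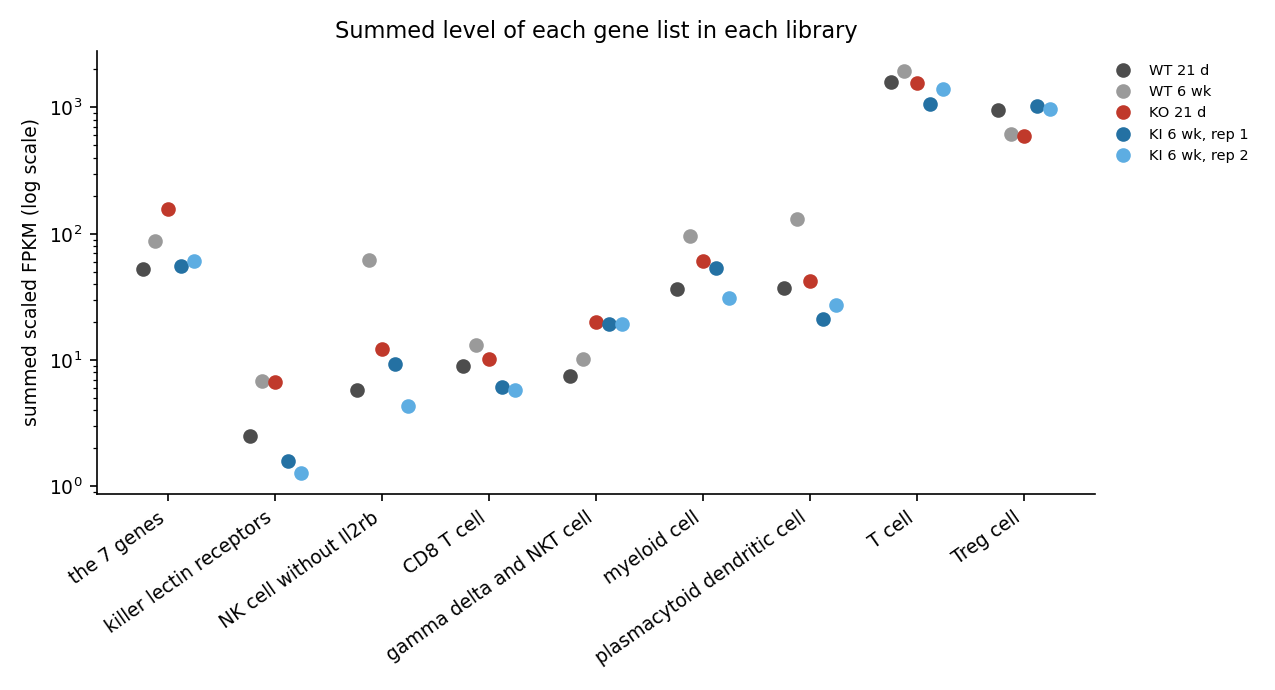
Summed scaled FPKM (vertical axis, log scale) of each gene list (horizontal axis) in each library, 1 point per library. The 7 genes are highest in KO, the plasmacytoid dendritic cell list in 6-week WT, and the Treg cell list lowest in KO and 6-week WT.

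Markers of other cytotoxic cells were examined beside the granule genes. Ncr1, the defining receptor of NK cells, was at or under 0.291 scaled FPKM in all 5 libraries, with 0.0867 in 21-day WT and 0.194 in KO. Klra4 was listed at 0 in all 5, Klra8 at 0 in KO and KI, and Klra9 at 0 in KI, with the same reserve about exact zeros. Klrb1c had 0.650 and 0.865 in WT, 1.82 in KO, and 0.467 and 0.608 in KI. Of 11 NK cell markers 5 were tested, and 1, Eomes, was past 2-fold higher in KO than in 21-day WT, but not than in 6-week WT. As above, Eomes passed the filter only through KO. The list's sum, 202 to 245, was made up mostly of Il2rb, which Treg cells express. Without it the sum was 5.82 in 21-day WT, 62.5 in 6-week WT, 12.3 in KO, and 9.32 and 4.30 in KI. In 6-week WT that sum was mostly Tyrobp, at 50.1, with Fcer1g at 4.50. The myeloid and plasmacytoid dendritic cell sums were highest in the same library. Of the other markers, Eomes, Klrb1c and Cd244 were highest in KO, and Xcl1, Ncr1, Klra8 and Klra9 in 6-week WT. A sum without Tyrobp and Fcer1g was not computed.

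The CD8 T cell markers Cd8a and Cd8b1 summed to 8.95 in 21-day WT, 13.2 in 6-week WT, 10.1 in KO, and 6.09 and 5.79 in KI. Past 2-fold were 0 of 2 in KO against 21-day WT, and 0 of 2 in both KI libraries against 6-week WT. Against 6-week WT, Cd8b1 was at -0.96 and -1.07 in the KI replicates, so past 2-fold lower in replicate 2. Cd8a was at -0.68 and -0.53. Of 6 gamma delta and NKT cell markers analysed, 4 were tested. Tcrg-C2, a T cell receptor gamma constant gene, was past 2-fold higher in KO, at 10.8 against 1.11 in 21-day WT and 1.73 in 6-week WT. In KI it had 4.07 and 5.72. Of the gamma constant genes, Tcrg-C1 was past 2-fold higher in both KI libraries against 6-week WT, at 6.33 and 8.0 against 2.16, and none was lower. The list summed to 7.51, 10.1 and 20.1 in 21-day WT, 6-week WT and KO, and to 19.1 and 19.3 in KI. Of the 7 Treg markers 3, Foxp3, Ctla4 and Ikzf2, were past 2-fold lower in KO than in 21-day WT, and of these Ikzf2 was against 6-week WT. Ikzf2 (Helios) had 68.0 and 36.3 in WT and 15.3 in KO, and Ctla4 had 395.5 and 147.5 in WT and 118.1 in KO. Lrrc32 was the 1 Treg marker past 2-fold higher in both KI libraries, with 135.5 and 115.1 against 35.6 in 6-week WT. In KO against 21-day WT, Jchain of the 5 tested B and plasma cell genes was past 2-fold higher and Cd79a and Ms4a1 lower, and Hba-a1 of the 4 tested erythroid genes was lower. Lyz2 of the 6 tested myeloid genes, and Ly6d and Pld4 of the 6 tested plasmacytoid dendritic cell genes, were higher. Against 6-week WT these 3 turned lower, with -1.42 for Lyz2, -2.04 for Ly6d and -2.44 for Pld4, and Jchain, at 0.60, was not past 2-fold, while Cd79a, Ms4a1 and Hba-a1 were lower there too. Their part in the granule gene levels of KO was not tested.

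The genes whose pattern over the 5 libraries was most like each member were sought among 9866 other tested protein-coding genes, by the root mean square difference of centred log2(scaled FPKM + 1) values. For Gzmb they were Ccl1 (0.21), B930041F14Rik (0.21) and Il4 (0.24). Ccl1, a chemokine, had 1.29 scaled FPKM in 21-day WT, 2.1 in 6-week WT and 21.3 in KO, and 6.11 and 5.51 in KI. Il4, a cytokine of type 2 immunity, had 0.675, 0.712 and 14.5, and 2.67 and 2.2 in KI. Both were highest in KO and next in KI, as Gzmb was, which follows from their choice by likeness to Gzmb. For Nkg7 they were Kcnk5 (0.11), Vmp1 (0.12) and Flot1 (0.13), and for Gzma Hist1h2ag (0.29), Hspa1b (0.30) and Gm15446 (0.36). For Prf1 they were Npm3 (0.057), Tmem160 (0.066) and Eef1b2 (0.068), and for Gzmk Plekhg3 (0.038), Nr6a1 (0.080) and Fam69b (0.11). For Klrd1 they were Pde3b (0.090), Hist1h2ao (0.11) and C730034F03Rik (0.13). For Klrg1 the nearest, Actg2 (0.74), Ccr9 (0.78) and BC094916 (0.81), were farther off. The nearest pair among the 7 genes themselves was Gzmk and Prf1, at 0.29, followed by Gzmb and Nkg7 at 0.41. Klrg1 was at least 1.16 from each of the others. Genes of small range come close to any other of small range by this measure, and 5 libraries are few.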

How the data were processed

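The deposited files give, for each library, Cufflinks gene-level FPKM with lower and upper bounds on build GRCm38, per the file headers. The submitters' processing notes name CASAVA, HISAT2 2.1.0 and Cufflinks 2.2.1. Counts, strand and annotation release are not stated in the labels or headers, and approximate fragments were estimated from the width of the bounds. FPKM was divided by a median-of-ratios factor over 9874 genes with at least 1 FPKM in every library. Genes with a mean of at least 1 were tested on log2(scaled FPKM + 1) for KI against WT at 6 weeks. The test was limma 3.58.1 (R 4.3.3, trend, Benjamini-Hochberg adjustment, threshold 0.05). The fit was also run on simulated data with the same spread for every gene, which does not show its power on these libraries. KO and WT comparisons have 1 library a group and are given by size.

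The members and lists were chosen with earlier results of these data known. Values are given for all 7 members, and for genes of the pathway lists reaching 10 scaled FPKM in a library and past 2-fold. Other list genes and the cell markers named were chosen after their values were seen, as was the NK cell sum without Il2rb. For each member the 3 nearest patterns are named. Trdc and Irf8 were not analysed here. The result of 1 other marker gene is not reported here. Alternatives were another pseudocount, filter, scaling, control and gene set, bounds, and leaving out each KI library.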

Additional observations from a re-analysis of the deposited data

Results flagged for a closer look

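In Gzma, Gzmk and Prf1 the KO library lay above WT at 21 days while both KI libraries lay below WT at 6 weeks. For Gzma the 2 effects differed by 4.22 on the log2 scale (SE 0.437, limma adjusted p = 0.171, all 5 libraries in the fit), from 2.64 in KO and from -1.52 and -1.63 in KI. For Prf1 they differed by 1.64 (SE 0.466, limma adjusted p = 0.276), from 0.95 in KO and from -0.52 and -0.87 in KI. For Gzmk they differed by 1.11, which was not tested because the gene was under the filter. Against WT at 21 days Prf1 was at 0.08 and -0.27 in the KI libraries, on both sides of 0. Age, allele and depth all differ between the 2 contrasts, and they cannot be told apart. The shallow library is the mutant in KO against 21-day WT, but it is WT in KI against 6-week WT. 6-week WT also had the highest summed markers of plasmacytoid dendritic, myeloid and erythroid cells, whose part in these differences was not tested.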

How the results depend on the processing

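The count of members past 2-fold between the WT libraries was 1 as reported. It was 2 with a pseudocount of 0.1, 3 with FPKM as deposited and 5 by bounds that do not overlap. The share over all tested genes was not computed for the pseudocount of 0.1. The count of genes called by limma between KI and WT at 6 weeks, 1 as reported, was 50 with a pseudocount of 0.1, 2 with FPKM as deposited, 25 with a minimum mean of 5 and 15 over protein-coding genes. It was 0 without a filter (2841 genes at an unadjusted p under 0.05) and 0 with WT at 21 days as control (240 genes). In these settings limma called 0 members, and the cause of the moves was not tested. Nkg7 in KI against WT at 6 weeks turned to -0.037 with FPKM as deposited, where the median of all genes moved to -0.26. Of 91 values of single members under alternatives, 89 kept their direction. Besides Nkg7, Klrd1 in KO against WT at 21 days turned, from -0.056 to 0.155 with FPKM as deposited. Sizes moved more, as for Gzma in KO, from 2.64 to 1.35 with WT at 6 weeks as control. Values without 1 KI library are single KI differences that already enter the main values. With libraries scaled to T cell genes, chosen after seeing the data, the KI count of members past 2-fold was 2 in place of 3, and the split over all genes was 1124 higher and 148 lower in place of 340 and 316. Between the WT libraries that split was 232 and 972 in place of 382 and 585. Without KI replicate 1 or 2 the KI count stayed at 3. The adjusted p from limma over the alternatives ranged from 0.191 to 1.0 for Gzma, from 0.182 to 1.0 for Klrd1 and from 0.186 to 1.0 for Klrg1. No paired analysis was possible because the groups compared share fewer than 2 replicate numbers. Klrd1 and Gzmk rest on few fragments in every library, the deep ones included, which limits their precision.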
